A study of Mus musculus with 4 samples.

Results

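Many zinc finger protein genes of the mouse are named Zfp and a number. In leukaemia exomes, 360 protein-coding autosomal genes with such a symbol were examined for sequence variants. A variant site entered when it lay between the start and the end of one of these genes and passed the same limits in both variant callers at the same position and with the same alleles: a depth of at least 10 reads, at least 3 variant reads and a variant allele fraction of at least 0.10, with a SpeedSeq quality score of at least 20. Such a site is called confident. Over all samples 671 confident sites lay in Zfp genes, of 47050 in the bodies of 20661 autosomal protein-coding genes. The symbols were matched as Zfp and digits alone, and of the chosen sites 12 lay in a pair of overlapping Zfp genes and 2 also lay in another protein-coding gene.

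The exomes came from c-Kit+ leukaemia cells of bone marrow, taken from moribund C57BL/6 mice with an Nras-G12D allele and a knockout of Ezh2, a genotype labelled E2-KO. All 4 samples belong to this 1 group, and no wild-type, pre-leukaemic or normal-tissue sample was analysed here, so inherited and acquired variants cannot be told apart. The promoter or Cre that drives the alleles is not given in the sources used here, and replicate numbers 1 to 4 merely follow the listing of the samples and rank nothing. The labels do not state that each sample came from a separate animal, so p-values measure the spread between these samples alone, which may be technical in part.

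Most Zfp genes encode proteins that bind DNA through arrays of C2H2 zinc fingers, short folds in which a zinc ion holds a recognition helix. Many carry a KRAB domain, which recruits the co-repressor Trim28 and, through it, the histone methyltransferase Setdb1 and heterochromatin proteins to silence retrotransposons, among them endogenous retroviruses. The genes arose by repeated local duplication, so that neighbours in a cluster can be nearly the same over long stretches, and a read from one copy may then be placed on another. Mapping quality, a Phred-scaled score, states how sure an aligner was of a read's place, and the mean mapping quality of the variant reads at each site is given by the SpeedSeq files, with 60 as its highest value.

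A few alleles show what kinds of change stood in these genes. The longest deletion in a Zfp gene, of 20 bases, was a confident site of Zfp341 in replicate 2 alone. A caller also listed a call of some quality at its position in another sample. The second longest deletion, of 14 bases, was found in Zfp978 in every sample. The first base of each line, in lower case, is the unchanged base before the deletion, and the capitals are the deleted bases of mm10 on the plus strand, at chr2:154641189-154641209 and chr4:147267490-147267504.
Zfp341 deletion: cGGAGGAGGTCAGAGGAGAGA
Zfp978 deletion: tCAGCGGTCTCCAAG
All 12 reads over the Zfp341 deletion in replicate 2 carried it, whereas the Zfp978 deletion was carried by 20 of 40 reads in replicate 1, 23 of 53 in replicate 2, 28 of 47 in replicate 3 and 27 of 42 in replicate 4.

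The insertions shown, of 5 to 9 bases, include a run of AC in Zfp39 and a run of CAG in Zfp644. Whether these extend a repeat of the reference was not tested. The lines give the base before the insertion in lower case and the inserted bases in capitals, at chr11:58900462-58900462 for Zfp39, chr5:106661941-106661941 for Zfp644 and chr11:58329837-58329837 for Zfp672.
Zfp39 insertion: tACACACAC
Zfp644 insertion: aCAGCAGCAG
Zfp672 insertion: tTCTTC
The Zfp39 insertion was found in replicate 1 alone, on 8 of 12 reads. Zfp644, whose protein acts with the histone methyltransferases G9a and GLP, carried its 9-base insertion on 5 of 12 reads in replicate 3 and on 11 of 13 reads in replicate 4. In Zfp672 the insertion was on 15 of 38 reads in replicate 1 and on 16 of 32 reads in replicate 2.

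At some positions 3 substitutions lay within a few bases of each other and were deposited as 1 allele, that is, on the same reads. In the lines below the capitals are the positions that differ between the mm10 reference and the variant allele, at chr4:147781033-147781040 in Zfp984 and at chr7:43189306-43189311 in Zfp936.
Zfp984 reference: CctcAtgG
Zfp984 variant: TctcGtgC
Zfp936 reference: AaaaTC
Zfp936 variant: GaaaGA
The Zfp984 allele was carried by 30.0% of reads in replicate 1 (21 of 70), 34.3% in replicate 2 (24 of 70), 25.3% in replicate 3 (20 of 79) and 35.9% in replicate 4 (23 of 64). For Zfp936 the shares were 41.6% (52 of 125), 36.1% (53 of 147), 32.9% (49 of 149) and 39.1% (54 of 138) in replicates 1 to 4. Over both alleles and all samples the shares lay between 25.3% and 41.6%.

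Zfp genes held 463, 453, 409 and 268 confident sites in replicates 1 to 4, a mean of 398.25 ± 89.9 (SD, n = 4). All other protein-coding genes together held 28882, 28621, 28008 and 18874 sites in the same order. Replicate 4 had the fewest sites in both sets. Per length of gene body, Zfp genes had 3.52 ± 0.796 sites per 100 kb, against 2.68 ± 0.497 in other genes (SD, n = 4), and the difference of 0.840 ± 0.322 was positive in 4 of 4 samples. An exact two-sided sign-flip permutation test over the samples gave p = 0.125, the smallest value that 4 samples allow, so none of the 6 comparisons of this kind can pass a threshold of 0.05. All 6 had p = 0.125 in this exact permutation test, and 0.125 after Benjamini-Hochberg adjustment over the 6. The sign of the density difference rested on a cluster of 12 genes on chromosome 4: without it the difference was -0.54 sites per 100 kb (SD 0.400). Gene bodies include introns that an exome does not capture, so these densities are not per captured base.

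A smaller share of Zfp genes than of other genes held a variant. A longer gene can hold more sites, and gene length was not matched between these sets. In any sample, 73 of 360 Zfp genes (20.3%) had a confident site, against 25% of all 20661 genes. By replicate the share of Zfp genes with a site was 13.1%, 13.1%, 12.8% and 8.89%, where the share over all genes was 15.5%, 15.3%, 15.3% and 11.3%. The difference from other genes was -2.46 ± 0.104 percentage points (SD, n = 4), negative in 4 of 4 samples (exact sign-flip permutation p = 0.125, adjusted 0.125), and -4.92 ± 0.133 points without the cluster. The 671 Zfp sites lay in 73 genes: 27 genes had a single site, 15 had 2 to 4, and 31 had 5 or more. Over all protein-coding genes, 47050 sites lay in 5166 of 20661 genes. Counts by number of sites were not taken for other genes, so gathering in few genes cannot be called a trait of Zfp genes. The 13 genes with 20 or more sites accounted for 468 pairs of gene and site. Among the 287 Zfp genes without a confident site, 168 had at least 1 call of some quality from either caller and 119 had none, with a median of 1 listed call over the 4 samples and a highest of 31.

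**Figure D1:**
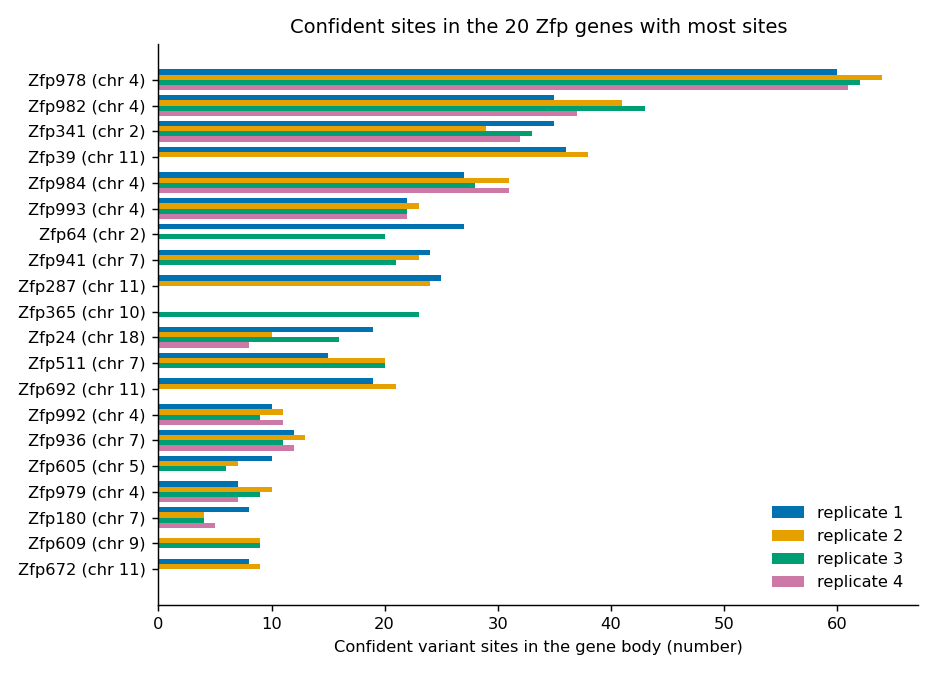
Number of confident variant sites (horizontal axis) in the 20 Zfp genes with most sites, with 1 bar for each replicate and the chromosome in brackets. Zfp978 leads with 60 to 64 sites in every replicate, whereas Zfp39, Zfp287 and Zfp692 have bars in replicates 1 and 2 alone and Zfp365 in replicate 3 alone.

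Position separated the genes. Zfp genes linked by gaps of at most 250 kb, in runs of at least 3, formed 28 clusters of 3 to 19 genes that hold 187 of the 360 genes. A confident site was found in 26 of the 187 clustered genes (13.9%) and in 47 of the 173 genes outside clusters (27.2%), where 25% of all genes had one. Only 12 clusters held any site, and the 16 without one contain 91 genes. The run from Zfp712 to Zfp273 on chromosome 13, with 19 genes the largest, had 0 confident sites in all 4 samples. Clustered genes nevertheless gave 46.4%, 51.2%, 53.5% and 77.2% of the Zfp sites of replicates 1 to 4, and most of these sites lay in a single cluster.

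This cluster lies near the end of chromosome 4, from Zfp992 to Zfp933 (chr4:146449030-147849126, GRCm38), and holds 12 genes. KRAB zinc finger genes of distal mouse chromosome 4 are known for silencing retrotransposons. It had 253 confident sites over all samples, with 169, 187, 181 and 175 of them in replicates 1 to 4. Its count hardly moved between samples, while Zfp genes elsewhere had 294, 266, 228 and 93 sites. Within the cluster Zfp978 had 95 sites over all samples, Zfp982 55, Zfp984 37, Zfp993 30, Zfp992 15 and Zfp979 12. Zfp982 is known as a factor of mouse embryonic stem cells. Zfp991 lies wholly inside the body of Zfp978, and Zfp981 overlaps Zfp993, so the sites of these pairs cannot be given to 1 gene.

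The variant reads of this cluster were placed with low mapping quality. A mean mapping quality under 50 was found at 71.6%, 77.5%, 78.5% and 78.3% of its sites in replicates 1 to 4. In Zfp genes elsewhere the shares were 10.2%, 9.77%, 11.8% and 25.8%, and in other protein-coding genes 10.3%, 9.73%, 7.88% and 11.1%. The median mapping quality of the cluster's sites was 40.5, 38.6, 38.4 and 37.4 in replicates 1 to 4, against 60 in the other 2 sets. In the cluster the reads with the reference allele had higher median values, 54.2, 55.4, 54.4 and 53.5. Sites with a reference value of 0 were left out of these medians, so they are not over quite the same sites.

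Over all Zfp genes, 42.9 ± 12% of sites had a mean mapping quality under 50, against 9.76 ± 1.37% in other genes (SD, n = 4). The difference was 33.2 ± 11.5 percentage points and positive in 4 of 4 samples, from 22.3 in replicate 1 to 49.0 in replicate 4 (exact sign-flip permutation p = 0.125, adjusted 0.125). Without the chromosome 4 cluster it was 4.65 ± 6.98 points. With exact Clopper-Pearson 95% intervals, which cover counting error only, the Zfp shares ran from 32.6% (28.4 to 37.1) in replicate 1 to 60.1% (53.9 to 66.0) in replicate 4, and those of other genes from 7.88% (7.57 to 8.20) to 11.1% (10.6 to 11.5). By gene, 20 of 360 Zfp genes (5.56%) had a site of this kind, against 3.68% of all genes.

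Depth was also higher in the cluster. The median depth at its sites was 131, 125, 141 and 123 reads in replicates 1 to 4, which is 2.62, 2.84, 2.71 and 2.46 times the median at sites of other genes (50, 44, 52 and 50 reads). Zfp genes elsewhere had median depths of 53, 45, 53 and 50 reads. A depth of at least 3 times that of other genes was found at 44.4%, 48.1%, 44.8% and 42.9% of the cluster's sites, and at 11.9%, 11.6%, 10.9% and 12.2% of the sites of other genes. The deepest site of a Zfp gene lay in Zfp992 at position 146463477 of chromosome 4, with 2936, 2816, 3371 and 3333 reads, where the variant allele had a fraction of 0.469, 0.435, 0.439 and 0.434. The part of read placement in these counts and fractions was not tested.

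**Figure D2:**
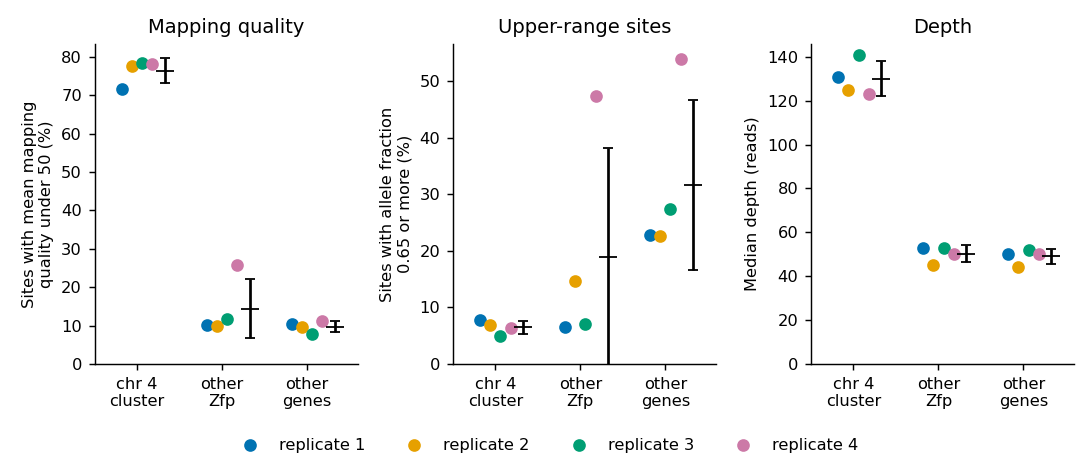
Share of sites with a mean mapping quality under 50 (left), share of sites with an allele fraction of 0.65 or more (middle) and median depth (right) for the 12-gene chromosome 4 cluster, Zfp genes elsewhere and other protein-coding genes, with 1 point for each replicate and bars for the mean and SD (n = 4; axes start at 0, which cuts off the lower end of 1 bar). The cluster stands at 71.6% to 78.5% in the left panel and at 123 to 141 reads in the right one, apart from both other sets.

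Allele fractions in the cluster lay in the middle range and repeated from sample to sample. The median fraction was 0.417, 0.408, 0.390 and 0.421 in replicates 1 to 4. A fraction of 0.65 or more, called upper-range here, was found at 13, 13, 9 and 11 sites. Across all Zfp genes 11.3 ± 6.61% of sites were upper-range, against 31.7 ± 15.0% in other genes, a difference of -20.4 ± 9.56 percentage points that was negative in 4 of 4 samples (exact sign-flip permutation p = 0.125, adjusted 0.125, n = 4). In replicate 4 the shares were 20.5% in Zfp genes and 53.9% in other genes, the highest of any sample in both sets. Without the chromosome 4 cluster the difference was -12.8 ± 6.60 points. Zfp genes outside all clusters had in replicate 4 only 61 sites, with 68.9% of them upper-range and a median fraction of 1.00, against 248, 221 and 190 sites in replicates 1 to 3, whose medians were 0.45, 0.50 and 0.364. Zfp341 alone held 32 of the 61 sites of replicate 4, and 32 of the 42 upper-range ones.

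At the sites confident in all 4 samples, the range of the allele fraction between samples differed by position. Of 118 such sites in the cluster, 1 had a range over 0.3, and the median range was 0.0779. Of 25 in other clusters, 1 had a range over 0.3, with a median of 0.101. Outside clusters 29 of 34 sites had a range over 0.3, and the median was 0.591, whereas in other protein-coding genes 4885 of 7798 sites (62.6%) had one, with a median of 0.507. Zfp341 alone held 21 of the 34 sites outside clusters. Sites of 1 gene lie close together and are not independent, so these counts are descriptions.

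**Figure D3:**
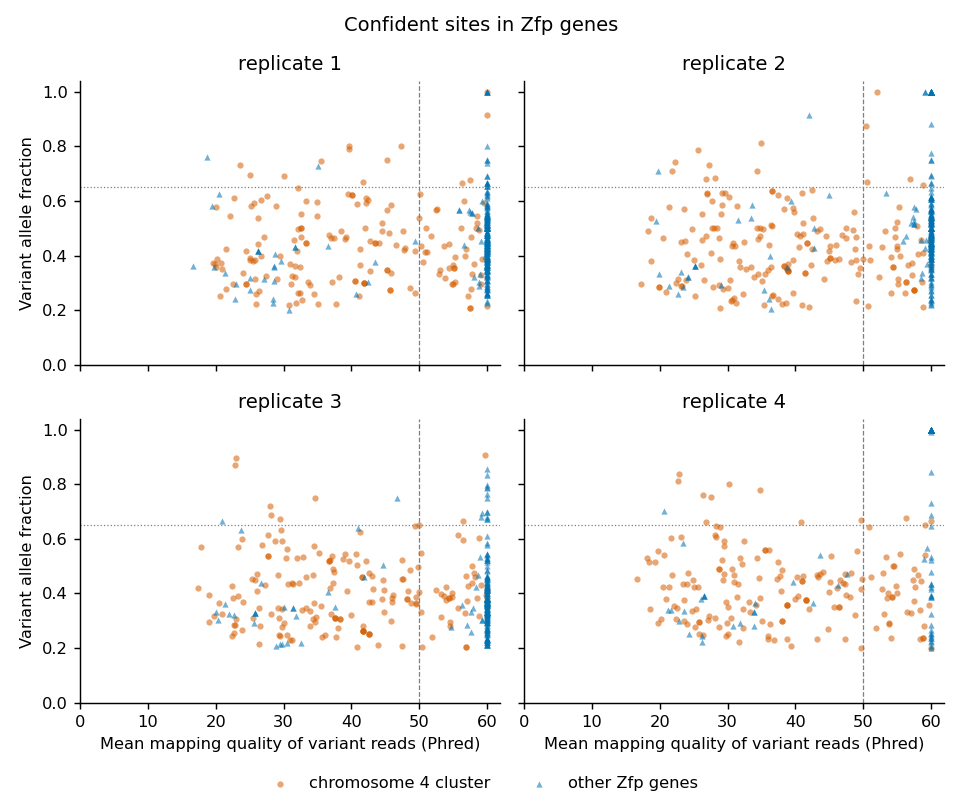
Mean mapping quality of the variant reads (horizontal axis, Phred scale) against variant allele fraction (vertical axis) for each confident Zfp site, 1 panel for each replicate, with circles for the chromosome 4 cluster and triangles for Zfp genes elsewhere. Dashed and dotted lines mark 50 and 0.65, and the circles spread over mapping qualities from under 30 to 60 at fractions mostly under 0.65, whereas most triangles lie at 60.

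The Zfp sites were also divided by mapping quality, a division close to that by cluster: 82 of 91, 96 of 109, 94 of 106 and 80 of 91 sites from 30 to 50 lay in the chromosome 4 cluster in replicates 1 to 4. In replicate 1, sites under 30 had a median depth 2.29 times that of other genes, sites from 30 to 50 had 2.62 times and sites of 50 or more had 1.01 times. In replicate 4 the ratios were 2.26, 2.42 and 1.06. Of the sites of 50 or more, 6.73%, 14.9%, 6.67% and 42.1% were upper-range in replicates 1 to 4, while sites from 30 to 50 had 8.79%, 2.75%, 2.83% and 4.40% and sites under 30 had 5%, 11.3%, 9.52% and 8.57%. The share at 50 or more lay between those of the lower classes in replicates 1 and 3 and above both in replicates 2 and 4. Zfp341, with a median mapping quality of 60, alone held 4, 28, 0 and 32 upper-range sites in replicates 1 to 4.

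Within the cluster the genes differed in depth more than in allele fraction. Zfp978 (chr4:147124882-147392027) had 60, 64, 62 and 61 sites with median fractions of 0.371, 0.338, 0.343 and 0.345 and median depths of 81, 89.5, 111 and 77 reads, and 70 of its 95 sites had a mapping quality under 50. Zfp982 (chr4:147443114-147516064) had 35, 41, 43 and 37 sites with median fractions of 0.360, 0.383, 0.373 and 0.375, at median depths of 468, 473, 520 and 462 reads. Zfp984 (chr4:147753974-147812229) had 27, 31, 28 and 31 sites, with fractions of 0.434, 0.464, 0.394 and 0.467, and 34 of its 37 sites were under 50. In each of these genes the replicates overlapped closely in both counts and fractions.

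Zfp993 (chr4:146512849-146991471) had 22, 23, 22 and 22 sites with median fractions of 0.488, 0.500, 0.483 and 0.492. Zfp979 had 7, 10, 9 and 7 sites with fractions of 0.348, 0.391, 0.380 and 0.349. Zfp534 had 1 site, at a depth of 895, 978, 1142 and 953 reads and a fraction of 0.297, 0.315, 0.306 and 0.286. Upper-range in all 4 samples were 4 sites of the cluster, 1 each in Zfp978, Zfp982, Zfp984 and Zfp993. The Zfp982 site, at position 147512322, had fractions of 0.676, 0.681, 0.664 and 0.677 at depths of 1250, 1210, 1542 and 1225 reads. No Zfp gene had a site at 0.65 or more in all 4 samples outside the cluster.

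**Figure D4:**
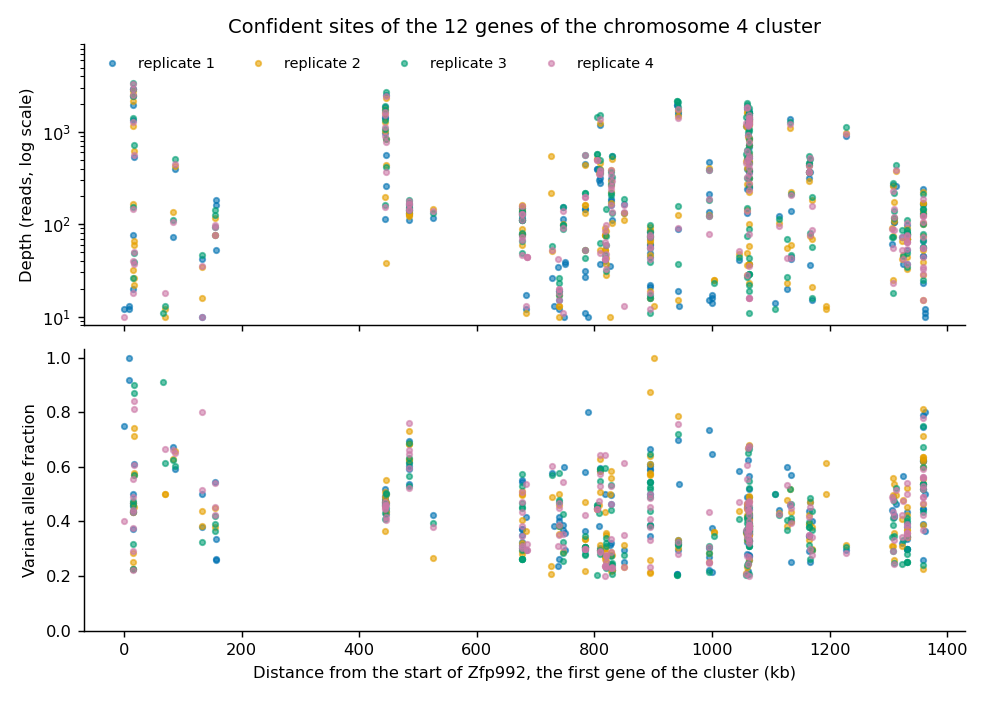
Depth (upper panel, log scale) and variant allele fraction (lower panel) of every confident site of the chromosome 4 cluster against its distance in kb from the start of Zfp992, coloured by replicate. Columns of sites reach depths above that of Zfp534 (895 to 1142 reads) at several places, and the 4 replicates lie on top of each other in depth and, at most sites, in allele fraction.

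Outside this cluster 10 genes had a site with a mapping quality under 50, as many as inside it. Zfp990, Zfp980 and Zfp600, which lie on chromosome 4 before the cluster and outside it at a gap of 250 kb, had 7, 5 and 5 sites, each of them with a mapping quality under 50. Zfp600 ends at position 146198756, only just over 250 kb before the cluster. The sites of these genes, 5, 4 and 3 in replicate 4, count with Zfp genes elsewhere and in the values without the cluster. On chromosome 7, Zfp936 (chr7:43114166-43192109) had 12, 13, 11 and 12 sites with median fractions of 0.424, 0.425, 0.367 and 0.433, and 7 of its 13 sites were under 50. Zfp977 had 3 sites, all under 50 and confident in every sample. Zfp605 on chromosome 5 had 10, 7, 6 and 0 sites, 8 of 12 under 50. All 3 sites of Zfp640 and the single site of Zfp414 were under 50, as was 1 site each in Zfp758 and Zfp942.

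Genes with such sites had, by the median, more similar upstream sequences. RefSeq promoter sequences (GRCm38.p6) matched 301 of the 360 genes by gene identifier, and the 250 bases before each start were compared with those of every other Zfp gene by edit distance. The nearest other gene had a median identity of 85.2% for the 16 matched genes with a site of mapping quality under 50, 51.2% for the 46 genes with sites but none under 50, and 52.0% for the 239 genes without a site. The lowest value of any matched gene was 48.4%, so medians of 51.2% and 52.0% lie near the bottom of this scale. Zfp600 and Zfp979 were each other's nearest gene, at 94.0%. A stretch of 100 bases upstream of each is shown because only 2 bases differ, given in capitals, for Zfp600 at chr4:146156723-146156822 on the plus strand and for Zfp979 at chr4:147642519-147642618 on the minus strand.
Zfp600 upstream: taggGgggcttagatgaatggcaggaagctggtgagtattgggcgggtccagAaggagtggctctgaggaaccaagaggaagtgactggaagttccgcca
Zfp979 upstream: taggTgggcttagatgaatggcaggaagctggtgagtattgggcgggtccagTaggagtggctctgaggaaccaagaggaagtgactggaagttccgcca
Zfp936 and Zfp977 were each other's nearest gene too, at 88.0%, and Zfp982 was nearest to Zfp987, at 87.2%. High identity did not go with confident sites everywhere. Zfp966 and Zfp967 were the same over all 250 bases and Zfp968 and Zfp973 were 99.6% identical, yet these 4 genes had 0 confident sites, and Zfp993, with 30 sites, had a nearest identity of 50.4%. Zfp605 and Zfp414, which also had sites of mapping quality under 50, had 50.4% each, and Zfp640 had 59.6%. Zfp943 and Zfp944, at 93.6% and 79.6%, had sites but none under 50. Zfp978, Zfp990, Zfp991 and Zfp992 had sites under 50 but no matched promoter, so they are not in the median of 85.2%.

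Several genes outside the clusters had many sites in some replicates and 0 in others. Depth is known only where a call was listed. Here and below, 0 sites therefore means no confident call, and absence of the allele was not tested. On chromosome 11, Zfp39 (chr11:58888153-58904225) had 36 sites in replicate 1, 38 in replicate 2 and 0 in replicates 3 and 4, with median fractions of 0.447 and 0.440. Zfp692, known in human cells for a part in ribosome biogenesis, had 19, 21, 0 and 0 sites, and Zfp672 had 8, 9, 0 and 0. Further along, Zfp287 (chr11:62692444-62731912) had 25, 24, 0 and 0 sites with medians of 0.453 and 0.517. In all, 7 Zfp genes had confident sites in replicates 1 and 2 alone, and the median mapping quality was 60 in Zfp39, Zfp692, Zfp672 and Zfp287. How many other genes had sites in replicates 1 and 2 alone was not counted.

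On chromosome 2 a set of neighbouring genes had sites in replicates 1 and 3 alone. Zfp64 (chr2:168893331-168955587), whose human counterpart drives transcription of MLL in leukaemia with MLL rearrangement, had 27, 0, 20 and 0 sites with median fractions of 0.429 in replicate 1 and 0.360 in replicate 3. Zfp334 had 7, 0, 7 and 0 sites, with 0.504 and 0.372. Zfp335, needed for T cell maturation in the mouse, had 3, 0, 3 and 0, and Zfp663 had 2, 0, 2 and 0. In each of these 4 genes the median fraction was lower in replicate 3 than in replicate 1, as it was over all Zfp sites (0.370 and 0.435) and over other genes (0.425 and 0.488).

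On chromosome 7 a pair of genes had sites in replicates 1 to 3. Zfp941 (chr7:140807453-140822201) had 24, 23, 21 and 0 sites with median fractions of 0.406, 0.460 and 0.360, and the short gene Zfp511 (chr7:140036390-140040606) had 15, 20, 20 and 0 sites, the highest density of the Zfp genes at 49.8 sites per 10 kb. Zfp365 (chr10:67886105-67912662), whose human counterpart is known for a part in genome stability, had 23 sites in replicate 3 and 0 in the other samples. Its median fraction was 0.327, with a range from 0.221 to 0.70.

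Other genes had sites in all 4 samples at different allele fractions. Zfp341 (chr2:154611816-154646821), whose human counterpart drives transcription of STAT3, had 35, 29, 33 and 32 sites. The median fraction was 0.452 and 0.364 in replicates 1 and 3 and 1.00 in both replicates 2 and 4, with 33, 31, 38 and 25.5 reads as the median depth of replicates 1 to 4. Zfp644 had medians of 1.00, 0.460, 0.396 and 0.996. Zfp62 had 2 sites, with medians of 0.478, 0.484, 0.827 and 1.00. The single Zfp592 site had fractions of 0.392, 1.00, 0.275 and 1.00. The samples near 1.00 thus differed from gene to gene, with replicate 4 among them in all of these genes.

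**Figure D5:**
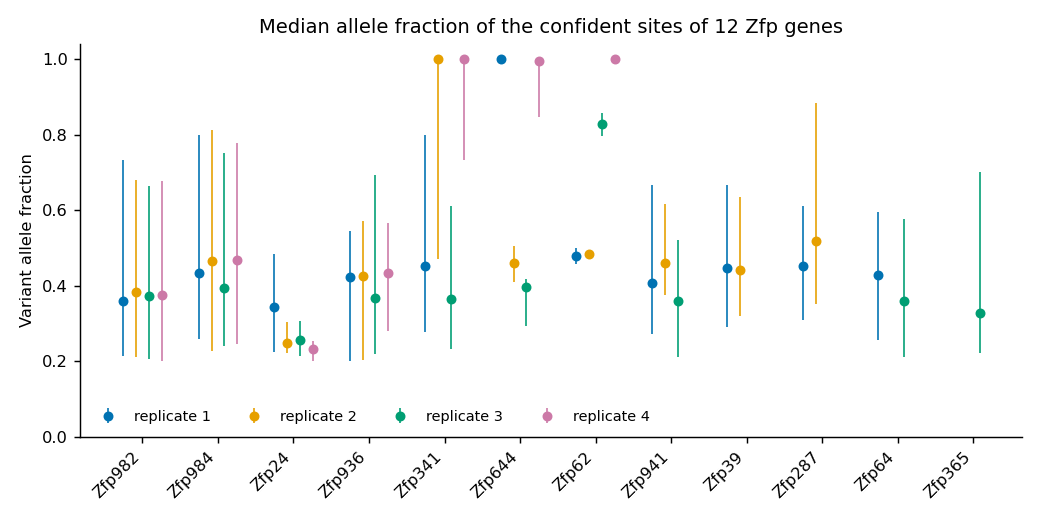
Median variant allele fraction (points) and lowest to highest fraction (lines) of the confident sites of 12 Zfp genes, coloured by replicate. The medians of Zfp982, Zfp984, Zfp24 and Zfp936 lie close together in the 4 replicates, those of Zfp341, Zfp644 and Zfp62 are split between about 0.36 and 1.00, and the genes at the right have points in 1, 2 or 3 replicates.

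Zfp24, a gene on chromosome 18 known for a part in myelination, followed neither form. It had 19, 10, 16 and 8 sites, 21 over all samples with 6 of them in every sample, and the median mapping quality was 60 in each replicate. The median fractions were 0.342, 0.248, 0.256 and 0.231 at median depths of 86, 71.5, 68.5 and 76 reads. In replicate 4 its sites lay within 208 bases and in replicate 2 within 242 bases, whereas in replicate 1 they spanned 779 bases and in replicate 3 they spanned 3606 bases. The lowest fractions of the gene were 0.225, 0.220, 0.214 and 0.201, close to the 20% under which VarScan2 lists no site, and the part of this limit in the counts was not tested.

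Sharing followed the same division. Of the 671 Zfp sites, 177 (26.4%, exact 95% interval 23.1 to 29.9) were confident in all 4 samples, against 7798 of 46379 (16.8%) in other genes. In the chromosome 4 cluster the share was 46.6% (40.4 to 53.0), in the other clusters 36.8% (25.4 to 49.3), and outside clusters 9.71% (6.82 to 13.3). The intervals of the chromosome 4 cluster and of the other clusters overlap. Outside clusters the most frequent pattern was replicates 1 and 2 together, with 94 of 350 sites. By gene, 23 of the 73 genes with a site had one in every sample, 7 in 3 samples, 16 in 2 and 27 in 1. Patterns of replicates and counts by gene were not taken for other genes, so neither can be called a trait of Zfp genes.

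Private sites were mostly grouped. A private site was confident in 1 sample and had no call of any quality from either caller at its position in the rest. The replicates had 26, 31, 41 and 6 private Zfp sites in turn, with a mean of 26.0 ± 14.7 (SD, n = 4). Of these, Zfp365 had 23 in replicate 3, Zfp64 had 8 in replicate 1, and Zfp758 in replicate 2 and Zfp641 in replicate 3 had 6 each. Only 9 of the 104 had no other private variant of the same sample within 500 kb, and 5 of these 9 were indels. Matching counts in other genes are not given here, so neither the grouping nor the indels can be called a trait of Zfp genes. Replicate 1 had 0 of these isolated sites, replicate 2 had 4, replicate 3 had 3 and replicate 4 had 2.

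The isolated sites lay in 9 genes. In replicate 3, Zfp541, a gene of meiosis in male germ cells, carried a substitution on 32 of 81 reads (39.5%, exact interval 28.8 to 51.0). Zfp106, an RNA-binding protein of motor neurons and muscle, carried one on 19 of 64 reads (29.7%, 18.9 to 42.4). A deletion of 1 base was found in Zfp148, a factor of GC-rich promoters, on 16 of 56 reads (28.6%, 17.3 to 42.2).

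In replicate 4, Zfp839 carried a substitution on 11 of 23 reads and Zfp667 a deletion of 1 base on 4 of 15 reads, all 4 of them on 1 strand. In replicate 2, Zfp750, whose human counterpart controls epidermal differentiation, carried an insertion of 1 base on 9 of 27 reads, and Zfp939 one on 7 of 20 reads, all 7 on 1 strand. Zfp605 carried an insertion on 11 of 46 reads with a mapping quality of 36.1, and Zfp936 a substitution on 6 of 14 reads. With depths of 14 to 81 reads these fractions are loosely set, and with no exon annotation or normal tissue, neither their effect on the protein nor their origin can be given.

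The kinds of change also differed between Zfp and other genes in these samples. Transitions made up 63.4 ± 3.01% of the SNVs (single-base substitutions) in Zfp genes, against 71.7 ± 0.553% in other genes, a difference of -8.27 ± 2.75 percentage points that was negative in 4 of 4 samples (exact sign-flip permutation p = 0.125, adjusted 0.125, n = 4). The cluster had 59.0%, 57.7%, 56.0% and 55.3% transitions, against 70.8%, 69.1%, 69.2% and 67.5% in Zfp genes elsewhere. Without the cluster the difference from other genes was -2.49 ± 1.18 points. Indels made up 8.23 ± 1.25% of the Zfp sites and 10.8 ± 1.04% of those in other genes, a difference of -2.58 ± 0.578 points with the same sign in 4 of 4 samples (exact sign-flip permutation p = 0.125, adjusted 0.125). Without the cluster it was -1.33 ± 2.10 points. Over all samples the Zfp genes had 66 indels, 43 deletions and 23 insertions. A length of 1 base was found for 41 of them (62.1%), against 61.0% in other genes, and a multiple of 3 bases for 5 (7.58%), against 11.3%.

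Other gene families with many copies gave a scale for these values. Among 1100 olfactory receptor genes, 37.3 ± 8.61% of sites had a mapping quality under 50, and among 352 vomeronasal receptor genes 69 ± 7.54% did, where Zfp genes had 42.9 ± 12% (SD, n = 4). Zinc finger genes of the Zbtb, Zscan and Zkscan families had 13.4 ± 11%, with a site in 12 of 66 genes (18.2%), where 25% of all genes had one. Per 100 kb of gene body, Zfp genes had 3.52 sites, olfactory receptor genes 23.4, vomeronasal receptor genes 17.8 and the Zbtb, Zscan and Zkscan genes 1.31. Olfactory receptor genes consist mostly of a single coding exon, so that an exome covers more of their length.

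The partners through which KRAB zinc fingers act were read in the same way. Of 18 co-repressor genes, 4 had a confident site, where 25% of all genes had one. Trim28 and Setdb1, the scaffold and the histone methyltransferase of the complex, had 0 sites in all samples, as did the HP1 genes Cbx1, Cbx3 and Cbx5. Chd3, a chromatin remodeller of the NuRD complex on chromosome 11, had 22, 24, 0 and 0 sites with median fractions of 0.455 and 0.468, the same replicates as Zfp39 and Zfp287. Its relative Chd4 had 1 site, at 0.812 in replicate 3 and 0.442 in replicate 4. Atf7ip, the partner that stabilises Setdb1, had 1 site in replicates 1 and 3, at 0.242 and 0.272, and Mphosph8, of the HUSH silencing complex, had 1 in replicate 2, at 0.259.

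Few members lay near the depth limit. Just inside it, at a depth of 10 or 11 reads in the shallower caller, there were 20, 19, 16 and 9 Zfp sites, and just outside it, at 8 or 9 reads, there were 30, 19, 11 and 8 that met the other limits. The lowest allele fractions were 0.20, 0.203, 0.203 and 0.20, at the edge of what VarScan2 lists and well above the limit of 0.10. The 7 Zfp genes of the X chromosome, which were not members, had 0 confident sites in all samples.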

How the data were processed

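Exomes of 4 samples of 1 group were captured with an Agilent SureSelect mouse kit and read on a BGISEQ500, per the labels' protocols. The deposited SpeedSeq files were made with freeBayes 0.9.21 against mm10, per the file headers, and give a quality score, whole-read counts for each allele and mean mapping quality scores. The deposited VarScan2 tables of SNVs and indels give read counts and a variant frequency in percent, per the file headers. The builds mm10 and GRCm38 are named in the submitters' processing notes. For the aligner, duplicate reads and the VarScan2 release, details were not given in the sources used here.

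From these 12 files, alleles were trimmed of shared bases, equal-length multi-base alleles were split into single bases, and both callers were joined by position and alleles. The allele fraction is variant reads over depth in SpeedSeq. Gene bodies came from RefSeq (GRCm38.p6). No exons, genome or protein sequences were used, so coding effects and numbers of zinc fingers were not analysed here. Zfp and other genes were compared within each sample by exact sign-flip tests over samples, and intervals are exact (Clopper-Pearson, 95%). Reads are not independent molecules, so these intervals reflect counting error alone. The functions were tested on simulated sites. Tools were Python 3.11.15, pandas 2.3.3, NumPy 2.4.6, SciPy 1.17.1, Biopython 1.88 and matplotlib 3.10.9.

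Genes were named by rule: the 10 with most sites, the 5 densest with at least 5 sites, up to 5 with the widest range of counts, with most upper-range sites in all samples or with most sites of mapping quality under 50, up to 5 per sample with an isolated private site, and each co-repressor with a site. Genes named beyond these (Zfp992, Zfp991, Zfp981, Zfp534, Zfp990, Zfp980, Zfp600, Zfp977, Zfp672, Zfp334, Zfp335, Zfp663, Zfp644, Zfp62, Zfp592, Zfp758, Zfp641, Zfp640, Zfp414, Zfp942 and the promoter pairs) were chosen after their values were seen. The members, lists and tests were chosen with earlier results of these data known. Alternatives were stricter quality, depth, fraction and mapping quality limits, each caller alone, other cluster gaps, neighbouring genes as the comparison and leaving out each replicate. Leaving out the chromosome 4 cluster and adding 26 symbols with a letter after the digits were chosen after the data were seen.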

Additional observations from a re-analysis of the deposited data

Results flagged for a closer look

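Of 40 quantities examined over the 4 samples, 13 had 1 sample set apart by a gap that was large against the whole range. Normally distributed values pass the limit used in about 1 in 20 by chance. Counts that are equal in all samples but 1 always pass it, so this rate does not hold for them. Replicate 4 stood apart in the share of Zfp genes with a site, at 8.89% against 12.8% to 13.1% in the others, and in the share of indels among Zfp sites, at 10.1% against 7.33% to 7.78%. Zfp365 had 23 sites in replicate 3 and 0 elsewhere. Zfp941 had 0 sites in replicate 4, against 21 to 24 in the others. Zfp993 had 23 sites in replicate 2 and 22 in each other sample, a gap of 1 site. The median allele fraction of Zfp936 was 0.367 in replicate 3, against 0.424 to 0.433 in the others. A single site, 1 in 1 sample and 0 in the others, set replicate 3 apart in Zfp106, Zfp148 and Zfp541, replicate 4 in Zfp667 and Zfp839, and replicate 2 in Zfp750 and Zfp939. These last 7 genes were named because they held a site in 1 sample, so that their pattern follows from the choice. Zfp365 and Zfp941 were named in part for a wide range of counts between samples, so their flags are not independent of the choice either.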

How the results depend on the processing

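Over 127 alternatives to the leading values, 4 turned a direction round. The density difference of 0.840 sites per 100 kb became -0.34 with a mapping quality of at least 50 and -0.54 without the chromosome 4 cluster. Against other genes in the 2 Mb bins that held a Zfp site it became -9.16. It kept its sign at 0.416 with a fraction of 0.30 and 2.73 with VarScan2 alone. The indel difference, -2.58 percentage points, became 0.0392 against those bins, -1.14 with a fraction of 0.30, -0.62 with a mapping quality of at least 50 and -1.33 without the cluster. Bins were taken where they hold a Zfp site, which raises the density of the genes in them by construction. The mapping quality difference, 33.2 points, was 13.8 with a threshold of 30 and 4.65 without the cluster. The upper-range difference, -20.4, was -12.8 without the cluster. The transition difference, -8.27, was -4.94 with a mapping quality of at least 50 and -2.49 without the cluster. The difference in genes with a site, -2.46, was -1.55 at a quality score of 100, -4.92 without the cluster and -24.4 against those bins. The mean number of sites, 398.25, was 675.5 with VarScan2 alone, 235.25 with a mapping quality of at least 50 and 220.25 without the cluster. The clustered share, 57.1%, was 34.4% with a mapping quality of at least 50. The share in all samples, 26.4%, was 30.5% at a depth of 20, 21.8% at a fraction of 0.30, 30.3% with VarScan2 alone, 15.1% with a mapping quality of at least 50, 14.1% without the cluster and 30.3% to 36.3% without 1 replicate. Private sites, 26.0 per sample, were 68.5 with VarScan2 alone, 49.5 when only confident calls in other samples counted, and 39.3 to 72.3 without 1 replicate, since fewer samples can then list a site. The cause of the other moves was not tested. No paired analysis was possible because the study has 1 group. With 4 samples no test here can pass 0.05, and fractions under 20% are outside what both callers list.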
